A study of Mus musculus with 12 samples.

Results

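Marker transcripts of B cells, T cells, macrophages and antigen-presenting cells were followed in neutrophil samples from mouse blood. The rule named 5 genes, Cd79a, Cd79b, Tcf7, Apoe and Cd74, and took those listed in a table of 9374 genes by their NCBI Gene IDs. Of these, 4 were listed (Cd79a, Tcf7, Apoe and Cd74), and Cd79b was not analysed here. The genes were chosen by their log2 values: they were selected after their levels in these 12 libraries had been seen, among them the LPS differences of Cd79a, Tcf7 and Apoe, so their values are given as a description and no test of them is offered. All mice were female. The wild-type (WT) and Hmgb1ΔMye mice, the latter labelled KO, were given saline or LPS (bacterial lipopolysaccharide, sensed by Toll-like receptor 4) at a dose of 0.5 mg/kg, and neutrophils were isolated 16 hours later. That label names Hmgb1, the gene of the chromatin protein HMGB1. The promoter that drives the deletion, the strain, the age of the mice and the method of isolation were not given in the sources used here. With 3 libraries each, the groups are called WT-Saline and WT-LPS, and KO-Saline and KO-LPS for the other genotype. The labels do not say that replicates are separate animals. A p-value here therefore reflects only the spread between these samples, possibly a technical one.

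Cd79a and its partner Cd79b are the signalling chains of the B cell receptor, and their genes are used as markers of the B lineage from early precursors onwards. Tcf7 encodes TCF-1, a transcription factor of T cells and innate lymphocytes that binds β-catenin at the end of the Wnt pathway. Apoe encodes apolipoprotein E, a carrier of lipids that macrophages secrete, and Cd74 the invariant chain, which escorts MHC class II molecules in B cells, dendritic cells and macrophages. In blood samples enriched for neutrophils such genes are used to look for other leukocytes that came along. In bulk samples fewer cells of a type and less RNA per cell cannot be told apart.

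Hmgb1 had 8, 17 and 12 reads with saline against 14, 15 and 34 with LPS in WT, while KO-labelled libraries had 14, 10 and 25 with saline against 6, 30 and 16 with LPS, and was not lower in the KO-labelled libraries (log2 difference from WT 0.53 ± 0.57 in saline and -0.21 ± 0.57 in LPS, limma adjusted p = 0.915 and 0.992). This check does not bear out the label, and counts over a whole gene need not show a deletion of part of it, so these groups are called KO-labelled. The libraries were shallow, with 399702 to 526757 reads in the table, and the median gene had 11.33 reads per library. The 4 genes had 6.5 (Tcf7 and Cd74), 16.4 (Apoe) and 26.3 (Cd79a) reads per library. Of 19 neutrophil markers 17 were measured, and S100a9, a calprotectin subunit, ranked 11 and Csf3r, the G-CSF receptor gene, 14 among all genes by mean reads. Other genes of that list were far lower, among them Ltf at rank 1160, Ly6g at 2851 and Camp at 4128. Some genes that are abundant in most or all myeloid cells were low in these values: Lyz2, the lysozyme gene, had 5.92 reads per library and Rps19, a ribosomal protein gene, 3.75. The library kit marks strand, but the strand setting of the read counting was not given in the sources used here, and whether a value holds the reads of the named gene's own strand was not tested. KO-LPS replicate 1 stood apart from the other KO-LPS libraries, with 325 reads of the granule gene Lcn2 against 2933 and 3530. For this gene it lay near the KO-Saline libraries, which had 254, 208 and 266 reads. Counts of genes called in KO-labelled libraries are also given without it. It is set apart here by a gene that differs with LPS, and without it the LPS calls over all genes went from 314 to 1076. Differences and calls without that library are therefore a description and no separate support.

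Promoter sequences of the 2 genes whose levels differed between saline and LPS in both genotypes are shown to place the genes in the genome (RefSeq, build GRCm38.p6, the same coordinates as mm10). Of the 4 genes, 3 had an entry; the Tcf7 entry is not printed. The Cd79a stretch is chr7:24897247-24897380 on the plus strand and ends before the first annotated exon; the Apoe stretch, chr7:19699189-19699438 on the minus strand, ends just before the start of the gene in GENCODE M21 and lies inside the longer RefSeq span of Apoe, which reaches 19701310. Capitals mark matches on either strand to AAGGGAA (a partial site of the B cell factor EBF1), CCCNNGGG (its palindromic core), GAGGAA (core of the myeloid and B cell factor PU.1) and CACCTG (an E-box). The interferon-stimulated response element was searched too and had no match in these stretches.
Cd79a: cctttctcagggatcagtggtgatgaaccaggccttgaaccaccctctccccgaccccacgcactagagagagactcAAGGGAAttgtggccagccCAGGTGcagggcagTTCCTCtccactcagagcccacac
Apoe: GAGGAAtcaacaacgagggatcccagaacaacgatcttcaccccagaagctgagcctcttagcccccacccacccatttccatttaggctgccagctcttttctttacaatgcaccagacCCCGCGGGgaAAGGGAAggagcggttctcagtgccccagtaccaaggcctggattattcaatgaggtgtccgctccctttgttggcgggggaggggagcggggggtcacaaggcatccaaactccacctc
In Cd79a the partial EBF1 site begins at position -173 from the start listed in the promoter table, the E-box at -154 and the PU.1 core at -140. In Apoe the PU.1 core begins at -250, the EBF1 palindrome at -130 and the partial EBF1 site at -120. Among 27025 promoters cut to the 134 bases of the Cd79a stretch, 3.50% held the partial EBF1 site, 13.2% the PU.1 core, 9.72% the E-box, 5.86% the EBF1 palindrome and 1.78% the interferon element. Cut to the longer Apoe stretch, the shares were 6.38% for the partial EBF1 site, 23.1% for the PU.1 core, 17.1% for the E-box, 11.7% for the palindrome and 3.04% for the interferon element. A match is a description of the letters and not of binding.

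**Figure D1:**
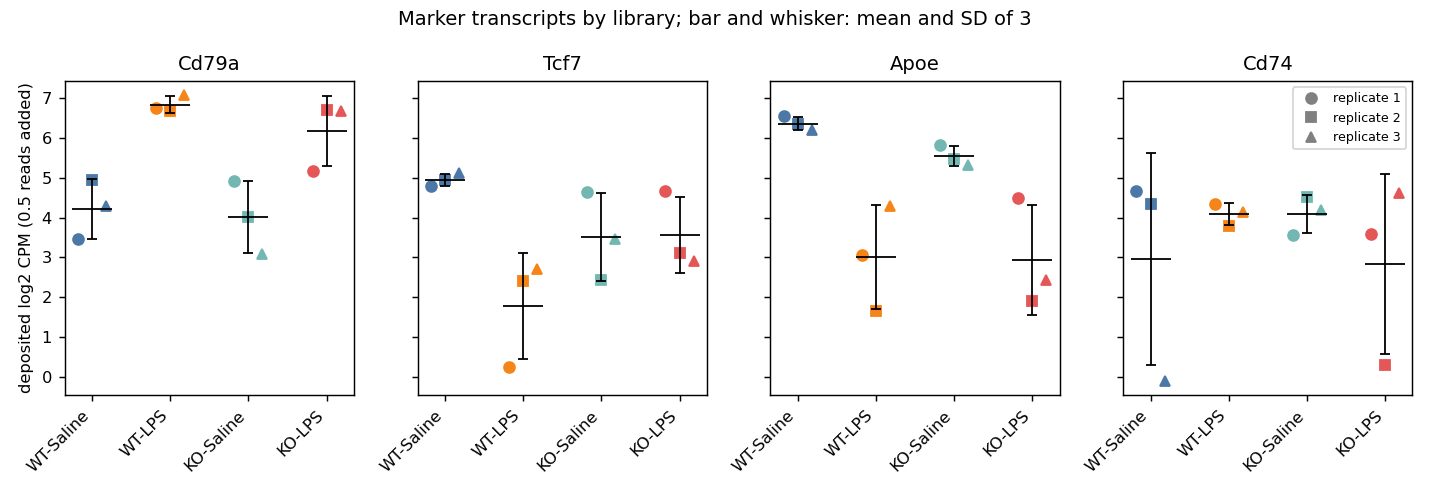
Deposited log2 CPM (vertical axis) of Cd79a, Tcf7, Apoe and Cd74 in the 12 libraries by group; symbols mark replicates, and the bar and whiskers the mean and SD of 3. Cd79a is high and Apoe low in all WT-LPS libraries, Tcf7 is high in all WT-Saline libraries, and KO-LPS replicate 1 (circle) lies nearer the saline libraries for Cd79a and Tcf7.

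After LPS, Cd79a was higher and Apoe lower in both genotypes, Tcf7 was lower in WT, and the Cd74 groups overlapped. In the limma fit across all genes, 3 of the 4 were past the threshold in WT (1 higher and 2 lower) and 2 of the 4 in KO-labelled libraries (1 higher and 1 lower). Of all genes, 11.7% were called in WT (6.72% higher and 4.96% lower in LPS) and 3.35% in KO-labelled libraries (1.99% higher and 1.35% lower). Since the genes were picked with these differences known, nothing is read from that count. The placement of Tcf7 in WT was lost when any WT-Saline library or WT-LPS replicate 1 was left out. In KO-labelled libraries the placements of Cd79a and Apoe were both lost without a mean-variance trend, with only the 2 groups compared and with limma-voom weights. That of Cd79a was also lost without each of KO-Saline replicates 2 and 3 and KO-LPS replicates 2 and 3. That of Apoe was also lost without each of those 4, each WT-Saline replicate and KO-Saline replicate 1.

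Cd79a encodes Igα, whose cytoplasmic tail carries the tyrosine motif through which the B cell receptor signals. The gene lies on the plus strand of chromosome 7 (24897381 to 24902197, mm10, GENCODE M21), and none of its exons overlaps an exon on the opposite strand. Its reads were 4, 14 and 10 with saline against 45, 48 and 72 with LPS in WT, while KO-labelled libraries had 11, 7 and 3 with saline against 13, 42 and 47 with LPS, replicates 1 to 3. Every WT-LPS library lay above every saline library, and so did KO-LPS replicates 2 and 3, while KO-LPS replicate 1, at 34.7 CPM (reads relative to the scaled library size), was just above the highest saline library at 29.6 CPM. The level was 19.3 ± 9.97 CPM with saline against 114 ± 17.4 with LPS in WT, while KO-labelled libraries had 17.1 ± 10.9 with saline against 79.7 ± 39.0 with LPS (SD, n = 3). In order of level WT-LPS came first, then KO-LPS, WT-Saline and KO-Saline. The step from KO-LPS to WT-Saline exceeded the larger SD and the other steps did not. The log2 difference between LPS and saline was 2.61 ± 0.55 in WT and 2.17 ± 0.55 in KO-labelled libraries (± is the standard error throughout for log2 differences), and 2.68 ± 0.56 in the latter without KO-LPS replicate 1. As pooled reads the LPS to saline ratio was 5.85 in WT, with a 95% exact counting interval of 3.90 to 9.07, and 4.88 (3.03 to 8.23) in KO-labelled libraries. Counting intervals, here and below, cover counting error only and not the spread between libraries.

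None of the other B cell genes was called. Of the 26 genes on the B cell list 5 were measured, and of the 4 apart from Cd79a limma called 0 in either LPS comparison (0 and 2 had an unadjusted p under 0.05 in WT and KO-labelled libraries). Cr2, the complement receptor CD21, was at 102 ± 12.4 CPM with saline against 113 ± 38.7 with LPS in WT, while KO-labelled libraries had 135 ± 1.21 with saline against 119 ± 50.6 with LPS. Fcer2a, the low-affinity IgE receptor CD23, went from 36.3 ± 4.43 to 23.3 ± 15.2 CPM in WT and from 23.9 ± 8.06 to 45.1 ± 30.9 in KO-labelled libraries (SD, n = 3). Cd72, an inhibitory co-receptor whose exons overlap Tesk1 on the other strand, had 13 and 7 reads in WT-Saline and WT-LPS, and 29 and 4 in KO-Saline and KO-LPS. The fourth, Bank1, a B cell scaffold protein gene, had 12, 8, 9 and 0 reads in the 4 groups (WT then KO-labelled, saline before LPS). The remaining genes of the list were not analysed here. Without KO-LPS replicate 1 the count in KO-labelled libraries was 0 too. The median log2 difference of the 4 measured genes was -0.53 in WT and -1.35 in KO-labelled libraries, beside 0.06 and 0.09 over all genes. Their summed level ran from 136 to 173 CPM in WT-Saline and from 104 to 171 in WT-LPS, so the WT groups overlapped; in KO-Saline it ran from 180 to 199 and in KO-LPS from 120 to 225.

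Genes further along B cell receptor signalling are also used by myeloid cells. Of 15 measured apart from Cd79a, 2 rose and none fell in WT, and none was called in KO-labelled libraries, where 3 had an unadjusted p under 0.05. The WT share was 13.3% beside 11.7% of all genes, and nothing is read from that count. The Src family kinase gene Lyn rose from 422 ± 89.3 to 679 ± 55.5 CPM in WT (SD, n = 3; log2 difference 0.70 ± 0.21, limma adjusted p = 0.0286), with an opposite-strand overlap with Gm26857. Pik3ap1, an adaptor for PI3 kinase, rose by 1.31 ± 0.40 (limma adjusted p = 0.0292). Each of these calls was lost without some WT libraries: for Lyn all but WT-Saline replicate 3, with adjusted p up to 0.154, and for Pik3ap1 replicates 2 and 3 of WT-Saline or 1 and 3 of WT-LPS, up to 0.168. The kinase gene Syk was at 714 ± 111 CPM in WT-Saline and 497 ± 81.3 in WT-LPS (limma adjusted p = 0.151), and the phosphatase gene Ptpn6 at 481 ± 76.1 and 632 ± 66.6 (limma adjusted p = 0.267). Without KO-LPS replicate 1, the list had 1 rise and 1 fall in KO-labelled libraries, Fcgr2b (log2 difference 3.03 ± 0.89, limma adjusted p = 0.0189) and Syk (-0.81 ± 0.20, limma adjusted p = 0.00568).

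The gene that follows Cd79a on the same strand also rose with LPS in WT. Arhgef1, a guanine nucleotide exchange factor of leukocytes, begins 1127 bases beyond the RefSeq end of Cd79a. It had 96, 110 and 100 reads with saline against 285, 224 and 241 with LPS in WT, while KO-labelled libraries had 98, 88 and 104 with saline against 127, 154 and 204 with LPS, with no overlap between saline and LPS in either genotype. It rose by 1.27 ± 0.24 on the log2 scale in WT (limma adjusted p = 0.000494). In KO-labelled libraries the difference was 0.72 ± 0.24 (limma adjusted p = 0.0972), and 0.81 ± 0.24 without KO-LPS replicate 1 (limma adjusted p = 0.0202). Whether reads beyond the end of one gene entered the count of the other was not tested. Rps19, the gene before Cd79a on the same strand, had 10, 20, 2 and 13 reads in the 4 groups (WT then KO-labelled, saline before LPS) and was not called.

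**Figure D2:**
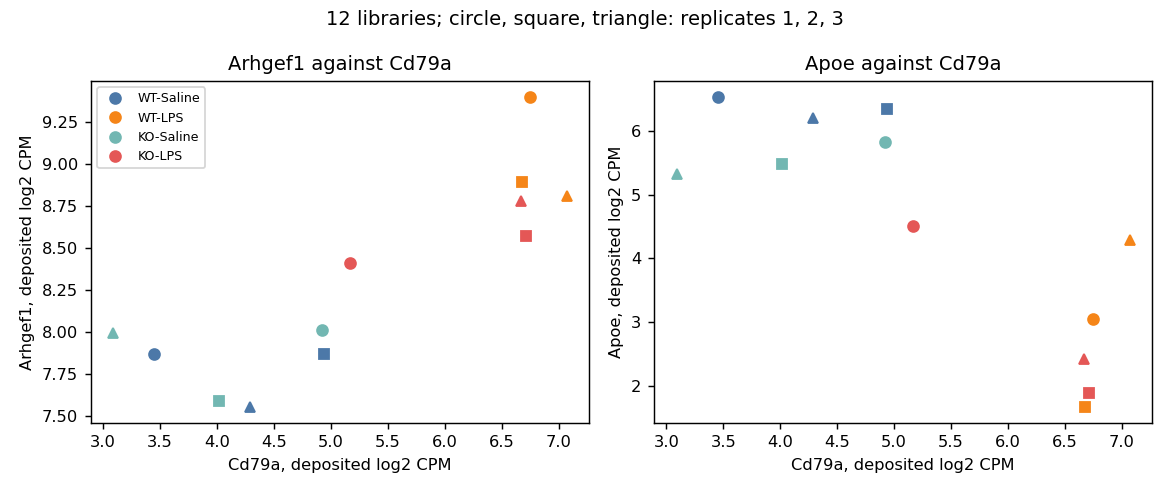
Deposited log2 CPM of Arhgef1 (left) and Apoe (right) against Cd79a in the 12 libraries, coloured by group, with symbols for replicates. The WT-LPS libraries lie at high Cd79a with high Arhgef1 and low Apoe, and the WT-Saline libraries at the other end.

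Tcf7 is a minus-strand gene of chromosome 11 (52252371 to 52283014 in GENCODE M21). Its reads were 11, 14 and 18 with saline against 0, 2 and 3 with LPS in WT, while KO-labelled libraries had 9, 2 and 4 with saline against 9, 3 and 3 with LPS. The WT groups did not overlap, and the KO-labelled groups did. The 0 in WT-LPS replicate 1 allows up to 7.11 CPM, taking a floor of 3 reads, as in all such limits here. The level was 29.9 ± 3.46 CPM in WT-Saline, 12.6 ± 9.88 in KO-LPS, 12.6 ± 9.95 in KO-Saline and 3.26 ± 2.91 in WT-LPS (SD, n = 3), in that order. Only the first step, from WT-Saline down to KO-LPS, exceeded the larger SD. The LPS difference was -3.17 ± 0.92 in WT and 0.05 ± 0.92 in KO-labelled libraries, where it was -0.50 ± 1.04 without KO-LPS replicate 1, -0.49 without KO-Saline replicate 2 and -0.05 ± 0.93 after median centring. Pooled, 43 reads in WT-Saline stood against 5 in WT-LPS, a ratio of 0.115 (95% counting interval 0.0357 to 0.291), and 15 against 15 in the KO-labelled groups (ratio 1.01, 0.458 to 2.21). The RefSeq span of Tcf7 (52246527 to 52283383) overlaps that of Skp1, on the plus strand, by 332 bases. Skp1 had 8, 12, 14 and 7 reads in the 4 groups (WT then KO-labelled, saline before LPS), and whether the overlap added reads to Tcf7 was not tested.

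None of the other T and NK cell genes was called. Of 39 on the list 10 were measured, and of the 9 apart from Tcf7 limma called 0 in WT and 0 in KO-labelled libraries (1 had an unadjusted p under 0.05 in each). Cd3d, a chain of the T cell receptor complex, was at 107 ± 24.2 CPM with saline against 129 ± 73.5 with LPS in WT, while KO-labelled libraries had 99.9 ± 28.4 with saline against 75.3 ± 24.9 with LPS (SD, n = 3). Cd247, the zeta chain, whose exons overlap Pou2f1 on the other strand, was at 181 ± 27.1, 138 ± 15.8, 174 ± 23.1 and 164 ± 20.7 CPM in the same groups. Cd27, a co-stimulatory receptor, was at 38.9 ± 4.08, 57.7 ± 8.20, 73.0 ± 21.2 and 44.7 ± 7.37 CPM. The median log2 difference of the 9 was -0.19 in WT and -0.41 in KO-labelled libraries. Their summed level was 414 ± 52.2 CPM with saline and 379 ± 64.0 with LPS in WT, and 455 ± 68.4 and 376 ± 87.6 CPM in KO-Saline and KO-LPS. Without KO-LPS replicate 1, Skap1 (log2 difference -4.24 ± 1.12, limma adjusted p = 0.00847) and Cd6 (-3.55 ± 1.19, limma adjusted p = 0.0452) fell in the KO-labelled comparison and the other 7 were not called. Skap1 had 4, 8 and 19 reads in KO-Saline against 11, 0 and 0 in KO-LPS, and Cd6 1, 9 and 12 against 8, 0 and 0. With 0 reads in KO-LPS replicates 2 and 3, the sizes of these 2 differences rest on the 0.5 reads added in the log2 values.

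Of 17 measured genes of the Wnt pathway apart from Tcf7, 1 rose and 1 fell in WT, and 1 fell in KO-labelled libraries. These shares were 11.8% and 5.88%, beside 11.7% and 3.35% of all genes, and nothing is read from these counts. Bcl9l, a β-catenin co-activator whose exons overlap Cxcr5 on the other strand, fell from 263 ± 37.8 to 81.1 ± 5.15 CPM in WT (log2 difference -1.68 ± 0.40, limma adjusted p = 0.00524) and from 218 ± 73.4 to 90.1 ± 86.1 in KO-labelled libraries (-1.62 ± 0.40, limma adjusted p = 0.0207; SD, n = 3). The KO-labelled call was lost, at adjusted p up to 0.215, when replicate 2 or 3 of either KO-labelled group was left out. Tcf7l2, a relative of Tcf7, rose by 1.76 ± 0.57 in WT (limma adjusted p = 0.0408), opposite in sign to Tcf7; this call was lost without each of 7 libraries, with adjusted p up to 0.245: replicates 1 and 3 of WT-Saline, 1 and 2 of KO-Saline, and every WT-LPS library. Tle3, a co-repressor that binds TCF factors, was at 685 ± 92.0, 619 ± 65.2, 755 ± 6.39 and 652 ± 36.6 CPM in the 4 groups (WT then KO-labelled, saline before LPS), and Gsk3a, a kinase that acts on β-catenin, was at 141 ± 10.9 and 209 ± 39.8 CPM in the WT groups (limma adjusted p = 0.261).

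Apoe is a minus-strand gene of chromosome 7 (19696109 to 19699188), and none of its exons overlaps an exon on the opposite strand. Its reads were 38, 38 and 39 with saline against 3, 1 and 10 with LPS in WT, while KO-labelled libraries had 21, 20 and 16 with saline against 8, 1 and 2 with LPS. Every saline library lay above every LPS library, and every WT-Saline library above every KO-Saline library. The level was 81.6 ± 9.74 CPM in WT-Saline, 45.8 ± 8.37 in KO-Saline, 9.37 ± 10.4 in KO-LPS and 9.27 ± 8.45 in WT-LPS (SD, n = 3). The first and second steps in this order exceeded the larger SD, and the LPS groups did not differ beyond it. The LPS difference was -3.36 ± 0.73 in WT and -2.60 ± 0.73 in KO-labelled libraries, or -3.38 ± 0.75 in the latter without KO-LPS replicate 1, where Apoe stood at 21.3 CPM against a mean of 3.38 in the other KO-LPS libraries. As pooled reads the LPS to saline ratio was 0.121 (95% counting interval 0.0640 to 0.211) in WT and 0.194 (0.0917 to 0.374) in KO-labelled libraries. The RefSeq spans of Apoe and Tomm40, the next gene on the same strand, are 2 bases apart; Tomm40 had 11 reads in all 12 libraries.

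Monocyte and macrophage genes other than Apoe went in both directions. Of 30 on the list 10 were measured, and of the 9 apart from Apoe, 2 rose, 1 fell and 6 were not called in WT. None was called in KO-labelled libraries (4 had an unadjusted p under 0.05). The WT share was 33.3% beside 11.7% of all genes, in a list chosen with earlier results known. Ly6c2, a surface antigen of inflammatory monocytes that immature neutrophils also carry and whose near-identical neighbour Ly6c1 makes read assignment uncertain, rose from 31.7 ± 16.4 to 391 ± 84.6 CPM in WT (log2 difference 3.67 ± 0.45, limma adjusted p = 2.96e-06). In KO-labelled libraries it went from 80.4 ± 27.9 to 226 ± 163 CPM (SD, n = 3; 1.19 ± 0.45, limma adjusted p = 0.154), and without KO-LPS replicate 1 the difference was 1.92 ± 0.36 (limma adjusted p = 0.000196). Csf1r, the receptor for macrophage colony-stimulating factor, whose exons overlap Hmgxb3, fell from 244 ± 49.6 to 130 ± 16.8 CPM in WT (limma adjusted p = 0.0282), a call that was lost, at adjusted p up to 0.147, when replicate 1 or 2 of either group was left out. Without KO-LPS replicate 1 it also fell in KO-labelled libraries (-0.80 ± 0.27, limma adjusted p = 0.0454), so that list then had 1 rise and 1 fall there. Lpl, lipoprotein lipase, had 1 read in WT-Saline and 35 in WT-LPS, a ratio of 34.7 (95% counting interval 5.84 to 1410; limma adjusted p = 0.0225), and its call did not survive leaving out replicate 1 or 3 of WT-Saline or replicate 2 or 3 of WT-LPS. Tgfbi, a matrix protein gene and the most abundant of the list, was not called, at 767 ± 50.8 and 842 ± 72.6 CPM in WT and 1144 ± 75.8 and 1054 ± 247 CPM in KO-labelled libraries (limma adjusted p = 0.756 and 0.785). The summed level of the 9 was 1186 ± 104 CPM with saline and 1517 ± 63.7 with LPS in WT, and 1597 ± 55.5 and 1631 ± 138 in KO-Saline and KO-LPS.

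Of 18 measured genes of apolipoprotein E and cholesterol transport apart from Apoe, 5 rose and 3 fell in WT, and 3 rose and none fell in KO-labelled libraries. These shares were 44.4% and 16.7%, beside 11.7% and 3.35% of all genes, in a list chosen with earlier results known. Without KO-LPS replicate 1 the KO-labelled counts were 3 and 3, the falls being Pltp, Npc1 and Abcg1. Scarb1, a receptor for high-density lipoprotein, rose from 24.0 ± 27.7 to 300 ± 62.6 CPM in WT (log2 difference 4.16 ± 0.46, limma adjusted p = 8.07e-07) and from 66.5 ± 6.01 to 357 ± 84.1 in KO-labelled libraries (2.38 ± 0.46, limma adjusted p = 0.00401; SD, n = 3), the last call being lost without KO-LPS replicate 2 (adjusted p = 0.0532). Srebf2, the transcription factor of cholesterol synthesis and uptake, rose by 3.36 ± 0.50 in WT (limma adjusted p = 2.99e-05) and by 1.81 ± 0.50 in KO-labelled libraries (limma adjusted p = 0.0388), the latter lost without each of 8 libraries, namely every replicate of WT-LPS and KO-Saline and KO-LPS replicates 2 and 3. The sterol exporter of lysosomes Npc1, whose exons overlap Rmc1, fell from 433 ± 58.4 to 235 ± 59.9 CPM in WT, and the phospholipid transfer protein gene Pltp, whose exons overlap Ctsa, from 314 ± 47.1 to 131 ± 5.57 (limma adjusted p = 0.00985 and 0.0257). The Npc1 call was lost when replicate 1 of either WT group was left out, and the Pltp call when any WT library but WT-Saline replicate 3 was.

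Cd74 lies on the plus strand of chromosome 18 (60803848 to 60812652) with no exon overlap on the opposite strand. Its reads were 10, 9 and 0 with saline against 8, 6 and 9 with LPS in WT, while KO-labelled libraries had 4, 10 and 7 with saline against 4, 0 and 11 with LPS. All groups overlapped. The zeros in WT-Saline replicate 3 and KO-LPS replicate 2 allow up to 5.59 and 7.40 CPM. The level was 16.4 ± 5.62 CPM in KO-Saline, 16.1 ± 3.20 in WT-LPS, 14.4 ± 12.7 in WT-Saline and 11.4 ± 11.8 in KO-LPS (SD, n = 3), and no step in this order exceeded the larger SD. The LPS difference was 1.12 ± 1.12 in WT and -1.25 ± 1.12 in KO-labelled libraries. Each turned with the library at 0: without WT-Saline replicate 3 it was -0.41 ± 1.02 in WT, and without KO-LPS replicate 2 it was 0.02 ± 1.09 in KO-labelled libraries. Pooled, 19 reads stood against 23 in WT (LPS to saline ratio 1.20, 95% counting interval 0.626 to 2.33) and 21 against 15 in KO-labelled libraries (0.718, 0.344 to 1.46). A 2-fold rise lay within the interval in WT, and a 2-fold fall within that in KO-labelled libraries.

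The class II molecules that Cd74 escorts were at the edge of detection. H2-Aa had 11 reads with saline and 0 with LPS in WT, and 4 and 0 in KO-labelled libraries (limma adjusted p = 0.0615 and 0.472), and H2-Ab1 had 3, 4, 3 and 6 reads in the 4 groups. Of 8 measured genes of class II presentation apart from Cd74, 1 rose and none fell in WT, and none was called in KO-labelled libraries (1 had an unadjusted p under 0.05). The WT share was 12.5% beside 11.7% of all genes, and nothing is read from that count. Ctss, cathepsin S, which degrades the invariant chain, rose from 11.6 ± 7.58 to 113 ± 31.7 CPM in WT (SD, n = 3; log2 difference 3.34 ± 0.51, limma adjusted p = 4.38e-05) and without each library in turn (adjusted p up to 0.000907). In KO-labelled libraries its difference was 1.46 ± 0.51 (limma adjusted p = 0.123), and the count of the list there was 0 without KO-LPS replicate 1 as well. Lgmn, the endopeptidase legumain, was at 139 ± 34.0 CPM in WT-Saline and 65.7 ± 23.8 in WT-LPS (limma adjusted p = 0.0533), and Rfxank, a subunit of the factor that activates class II promoters, whose exons overlap Nr2c2ap, at 35.6 ± 9.14 and 39.1 ± 38.5.

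**Figure D3:**
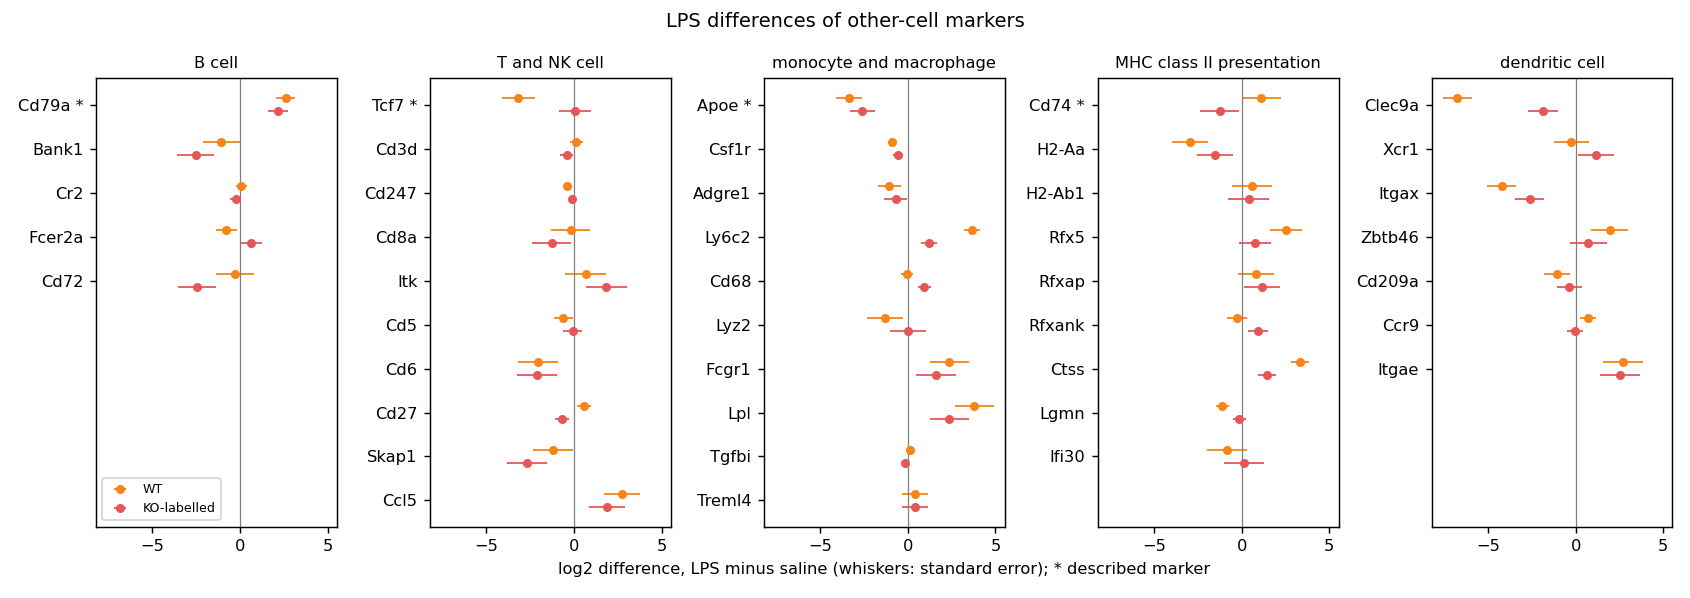
Log2 difference between LPS and saline (horizontal axis, whiskers are standard errors) in WT and KO-labelled libraries for the measured genes of 5 marker lists, with the described markers starred. Cd79a stands to the right of the other B cell genes, and Apoe lies left while Ly6c2 and Lpl lie right in WT.

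Per kilobase of exon, the scale on which levels of different genes may be set side by side, the mean over all 12 libraries was 39.5 CPM per kb for Cd79a, 17.1 for Apoe, 8.69 for Cd74 and 5.56 for Tcf7. Cd3d stood at 56.7, Csf1r at 35.3, Csf3r at 1071 and S100a9 at 10675 on the same scale. In WT-Saline the order of the 4 differed, with Apoe at 38.2 ± 4.56, Cd79a at 13.2 ± 6.84, Tcf7 at 11.4 ± 1.32 and Cd74 at 8.58 ± 7.59 CPM per kb (SD, n = 3). In WT-LPS Cd79a led at 78.2 ± 12, followed by Cd74 at 9.60 ± 1.91, Apoe at 4.33 ± 3.95 and Tcf7 at 1.24 ± 1.11 CPM per kb.

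Apart from the 4 genes, 41 markers of other blood cells were measured (B, T and NK, monocyte and macrophage, class II, dendritic, platelet and erythroid lists). Of these 41, 9 were called in WT, 3 higher and 6 lower, which is 22% beside 11.7% of all genes. The lists were chosen with earlier results of these data known, so nothing is read from the difference between these shares. In KO-labelled libraries 1 of the 41 was called, 2.44% beside 3.35% of all genes. Without KO-LPS replicate 1 the calls over all 9374 genes went from 314 to 1076. Those among the 41 went from 1 to 9, with 2 higher and 7 lower. The median log2 difference was -0.24 in WT and -0.08 in KO-labelled libraries. The WT calls came from the monocyte and macrophage (3), class II (1), dendritic (2) and platelet (3) lists, and the B, T and NK and erythroid lists had 0. Among 7 dendritic cell genes 2 fell in WT: Clec9a, a receptor for dead cells on cross-presenting dendritic cells, had 174 reads in WT-Saline and 0 in WT-LPS (limma adjusted p = 3.8e-06), and Itgax, the CD11c integrin gene, fell from 139 ± 24.6 to 13.5 ± 12.2 CPM (SD, n = 3; limma adjusted p = 0.00088). Without KO-LPS replicate 1, Clec9a (log2 difference -2.96 ± 0.88, limma adjusted p = 0.0217) and Itgax (-3.64 ± 0.78, limma adjusted p = 0.000889) fell and Itgae rose (3.72 ± 1.18, limma adjusted p = 0.0323) in KO-labelled libraries. Itgae had 0 reads in every KO-Saline library and 0, 4 and 10 in KO-LPS, so the size of its difference rests on the 0.5 reads added. Ccr9, a homing receptor with opposite-strand overlap with Slc6a20a, was at 48.3 ± 19.2 and 74.9 ± 5.99 CPM in the WT groups (limma adjusted p = 0.375). All 3 platelet genes fell in WT. Gp1ba, of the von Willebrand factor receptor, fell from 619 ± 130 to 198 ± 42.6 CPM in WT and from 699 ± 92.7 to 297 ± 120 in KO-labelled libraries (limma adjusted p = 7.39e-05 and 0.005), the latter call lost without each of KO-LPS replicates 2 and 3. Gp9 fell by 2.62 ± 0.86 in WT (limma adjusted p = 0.0432), a call lost without each WT-Saline and KO-Saline replicate, without WT-LPS replicates 1 and 2, and with the replicate number as a block (adjusted p = 0.0518), and Clec1b had 32 reads in WT-Saline and 0 in WT-LPS (limma adjusted p = 0.0101). The annotated spans of Clec1b (129397297 to 129409335) and Clec9a (129408862 to 129424763) overlap on the plus strand of chromosome 6. Their falls may therefore not be separate, and whether reads of one entered the count of the other was not tested. Gp9 fell in KO-labelled libraries too without KO-LPS replicate 1 (-2.65 ± 0.90, limma adjusted p = 0.0479). The 1 erythroid gene, Alas2, was not called. Without a mean-variance trend the WT calls named above of Lyn, Pik3ap1, Bcl9l, Tcf7l2, Csf1r, Lpl, Npc1, Pltp, Itgax and Gp9 were lost, as were the KO-labelled calls of Bcl9l, Scarb1, Srebf2 and Gp1ba. The KO-labelled calls of Bcl9l and Srebf2 were also lost with only the 2 groups compared, that of Srebf2 also after median centring and with a minimum mean log2 value of 4, and the WT call of Tcf7l2 with limma-voom weights.

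The summed level of the 3 platelet genes went from 679 ± 137 to 204 ± 47.2 CPM in WT and from 736 ± 94.0 to 320 ± 153 in KO-labelled libraries, and that of the 7 dendritic cell genes from 356 ± 81.9 to 146 ± 17.6 in WT, while KO-Saline libraries lay at 228 to 285 and KO-LPS libraries at 83.9 to 208 (SD, n = 3). In both genotypes every LPS library lay below every saline library for both sums, as for Apoe, and Cd79a differed the other way. The dendritic sum fell in WT mainly through Clec9a (119 ± 44.4 CPM to 0) and Itgax (139 ± 24.6 to 13.5 ± 12.2). Of the others, Cd209a (26.3 to 11.4) and Xcr1 (17.2 to 13.9) were lower. Ccr9 (48.3 to 74.9), Itgae (3.02 to 21.2) and Zbtb46 (3.44 to 11.2) were higher. Gp1ba made up most of the platelet sum in WT, at 619 CPM with saline and 198 with LPS. On the neutrophil list, the LPS comparison called 10 of the 17 measured genes higher and 3 lower in WT. In KO-labelled libraries it called 4 higher and 2 lower, or 6 and 3 without KO-LPS replicate 1. With all libraries these shares were 76.5% in WT and 35.3% in KO-labelled libraries, beside 11.7% and 3.35% of all genes. This list too was chosen with earlier results known. Csf3r fell from 5359 ± 396 to 1772 ± 377 CPM in WT, the chemokine receptor gene Cxcr4 from 457 ± 126 to 88.7 ± 13.8 and Clec4d from 306 ± 26.1 to 143 ± 24.8, while the granule gene Lcn2 rose from 386 ± 116 to 6618 ± 780 (SD, n = 3). The summed level of the 17 was 14353 to 19152 CPM with saline against 28814 to 30618 with LPS in WT, while KO-labelled libraries had 19685 to 20679 with saline against 23545 to 32202 with LPS. The part of cell mix in the differences of Cd79a, Tcf7 and Apoe was not tested.

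**Figure D4:**
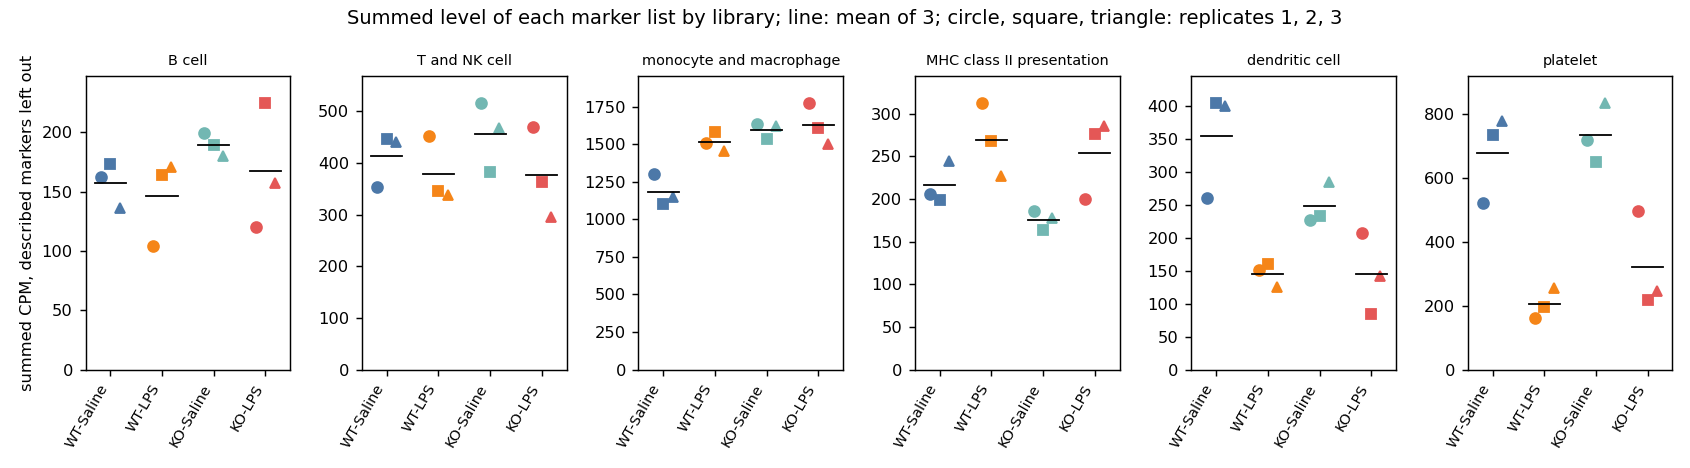
Summed CPM of the measured genes of 6 marker lists in each library, without the 4 described genes; lines are means of 3 and symbols mark replicates. Platelet and dendritic cell sums are lower in WT-LPS than in WT-Saline, with no overlap, while B cell and T and NK cell sums overlap between treatments.

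Between genotypes limma called 1 of 9374 genes in saline (0.0107%; Ecm1), 0 in LPS (0% of all genes) and 0 for the interaction, which is the KO-labelled LPS difference less the WT one (0%). None of the 4 genes and none of the 41 other markers was called in any of these 3 comparisons, while without KO-LPS replicate 1 Ly6c2 was called higher in KO-Saline than in WT-Saline. The genotype comparisons use the same libraries as the LPS comparisons. At an unadjusted p under 0.05 the counts over all genes were 643, 471 and 560, and over the 41 markers 5, 2 and 4. With limma-voom weights 2, 1 and 2 of all genes were called. The Apoe difference between KO-Saline and WT-Saline was -0.82 ± 0.73, with pooled reads of 57 against 115 (ratio 0.563, 95% counting interval 0.402 to 0.780). That interval leaves out the spread between libraries, so no genotype difference is read from it. In LPS the Apoe difference was -0.06 ± 0.73, or -0.85 ± 0.75 without KO-LPS replicate 1. For Tcf7 the KO-labelled difference from WT was -1.44 ± 0.92 in saline and 1.78 ± 0.92 in LPS, with opposite signs. In LPS the Tcf7 reads were 0, 2 and 3 in WT against 9, 3 and 3 in KO-labelled libraries, a tie at the floor of 3 reads. Nothing is read from a separation of these groups. The Tcf7 interaction was 3.22 ± 1.31, or 2.66 ± 1.40 without KO-LPS replicate 1. For Cd79a the genotype differences were -0.21 ± 0.55 in saline and -0.65 ± 0.55 in LPS, and the interaction of -0.44 ± 0.77 became 0.07 ± 0.75 without KO-LPS replicate 1. For Apoe the interaction of 0.76 ± 1.04 became -0.02 ± 1.01 without that library. For Cd74 the differences were 1.12 ± 1.12 in saline and -1.25 ± 1.12 in LPS, with a turn of sign without WT-Saline replicate 3 and KO-LPS replicate 2.

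The genes whose log2 values were most like each of the 4 over the 12 libraries were sought among the 4379 or 4380 genes at or above the median level, predicted genes aside. Likeness is Pearson's r, given as a description; the 12 libraries share the LPS contrast, so any gene that differs with LPS can score high. For Cd79a the closest were Tmem198b (r = 0.97), St8sia1 (0.96), Trim14 (0.96), Eml2 (0.96) and R74862 (0.95). Of these, 4 overlap exons of another gene on the opposite strand and Eml2 does not. Such an overlap was present for 3420 of all 9374 genes, and nothing is read from that count. For the deviations from the group means, which leave out the group averages, the r of these 5 genes with Cd79a ran from 0.81 (Eml2) to 0.96 (Trim14). These deviations still hold the distance of KO-LPS replicate 1 from the other KO-LPS libraries (Cd79a at log2 CPM 5.17 against 6.71 and 6.67). The part of that library in these r values was not tested. Trim14, an antiviral signalling adaptor gene, had a mean log2 CPM of 3.67 ± 0.63 with saline against 6.58 ± 0.10 with LPS in WT, while KO-labelled libraries had 3.13 ± 0.65 with saline against 4.97 ± 0.96 with LPS (SD, n = 3). None of the measured B cell genes was among the 5, but only Cr2 and Fcer2a could have been. Bank1 and Cd72 lay below the median level and were not searched. For Apoe the closest were Ctc1 (0.97), Csf1 (0.96), Taok1 (0.95), Cfap100 (0.95) and Sstr4 (0.93); Csf1, which encodes macrophage colony-stimulating factor, stood at 7.88 ± 0.29, 6.03 ± 0.30, 7.64 ± 0.09 and 6.01 ± 1.03 log2 CPM in the 4 groups (WT then KO-labelled, saline before LPS). For Tcf7 they were Wrap73 (0.94), Capn3 (0.94), Csrnp1 (0.92), Ccdc96 (0.91) and Gabpb1 (0.90). For Cd74 they included Arfgef1 (0.81), Pea15a, Itpripl2 and Arel1 (each 0.80), and Cd74 had 2 libraries at 0 reads.

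Among the 4 genes themselves, r over the 12 libraries was -0.81 for Cd79a with Apoe, 0.66 for Tcf7 with Apoe, -0.56 for Cd79a with Tcf7, and -0.27 to 0.10 for the pairs with Cd74. For the deviations from the group means it was -0.28, 0.41 and -0.04 for the same first 3 pairs. These values are descriptions over libraries that share the treatment.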

How the data were processed

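RNA was measured in 12 libraries, 3 in each group, grouped by the labels. The authors deposited log2 values, 1 column per library; all 12 columns were used. They have the form of log2 CPM with 0.5 reads added: whole reads came back within 0.0001 for 100.0% of values in each column. Build mm10 is per the submitters' processing notes; aligner, counter, annotation, strand setting and gene filter were not given in the sources used here. Every gene had at least 8 reads in all.

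Symbols were found for 9372 of 9374 IDs, and 9299 matched GENCODE M21 (bedtools 2.31.1 for exon overlap). The deposited log2 values were fitted with limma 3.58.1 in R 4.3.3: 4 group means over 12 libraries, a mean-variance trend, two-sided tests, Benjamini-Hochberg adjustment over all genes, called under 0.05. CPM here is recovered reads relative to the library size scaled as in the deposited values. Counting intervals are 95% exact binomial (scipy 1.17.1) and, like the floor of 3 reads (5.58 to 8.00 CPM), cover counting error only. On simulated data for the WT comparison over 9374 genes, limma recovered 3.0% of 2-fold, 62.7% of 4-fold and 95.5% of 8-fold changes. The changed genes were drawn only from better covered genes, above the reads of Tcf7 and Cd74. The spread was set and not estimated from the data, so these shares do not cover genes with few reads.

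The members and lists were chosen with earlier results of these data known. Named genes are, per list, the 3 most abundant and up to 4 called genes of largest difference in each pairwise comparison. Genes next to a member and the 5 most alike are named too. Others were named after their values were seen (Bank1, H2-Aa, H2-Ab1, Lyz2, Cd6, Skap1, Fcgr2b, Abcg1, Itgae, Cd209a, Xcr1, Zbtb46, Ly6g, Clec4d and Ecm1). A few genes that the rule names are not reported here. Alternatives were no trend, only the 2 groups compared, a replicate block, median centring, a minimum mean log2 value of 4, 2 reads added, leaving out each library and, chosen after seeing the data, limma-voom weights.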

Additional observations from a re-analysis of the deposited data

Results flagged for a closer look

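Cd27, a T and NK cell list gene, was flagged for LPS differences of opposite sign in the 2 genotypes, neither of which was called. Every WT-LPS library lay above every WT-Saline library and every KO-LPS library below every KO-Saline library. The share of all genes that separate in this way is not given here, so nothing is read from the separation. The LPS difference was 0.55 ± 0.40 in WT and -0.67 ± 0.40 in KO-labelled libraries (limma adjusted p = 0.444 and 0.416). The interaction was -1.22 ± 0.57 and did not pass (limma adjusted p = 0.82).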

How the results depend on the processing

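Without a mean-variance trend limma called 363 genes in WT, 16 in KO-labelled libraries (no other-cell marker, 0 in place of 1) and 0 between genotypes in saline, against 1095, 314 and 1. With only the 2 groups compared the count was 82 for LPS in KO-labelled libraries and 22 between genotypes in saline. With 2 reads added 4 genes were called between genotypes in saline and 2 other-cell markers in KO-labelled libraries. With limma-voom weights, an alternative chosen after seeing the data, 2 other-cell markers were called in KO-labelled libraries, and 2, 1 and 2 genes between genotypes in saline, in LPS and for the interaction. The cause of these shifts was not tested. Leaving out each library gave 734 to 1427 genes and 6 to 11 other-cell markers in WT, 32 (without KO-LPS replicate 2) to 1076 (without KO-LPS replicate 1) genes and 0 to 9 markers in KO-labelled libraries, 0 to 31 genes and 0 to 1 markers between genotypes in saline, 0 to 2 genes and 0 markers in LPS, and 0 to 7 genes and 0 to 1 markers for the interaction. In KO-labelled libraries the count of genes was 206, 129 and 108 without KO-Saline replicates 1, 2 and 3, and 47 without KO-LPS replicate 3. Median centring and a minimum mean log2 value of 4 (which leaves out Tcf7 and Cd74) kept every count within 1.5 times. Of 37 calls of named genes, 19 held without each library and 12 under every other alternative. Same-numbered libraries did not deviate together (r from -0.066 to 0.04 over 18 pairs), and the fit with the replicate number as a block gave 1086 and 336 called genes in WT and KO-labelled libraries. The block ended 1 call of a named gene, Gp9 in WT. A count-model test on the recovered reads was planned and not run. In simulated data for the WT comparison, at a set spread, 3.0% of 2-fold changes in better covered genes were called. In that setting smaller differences were mostly not detectable at this depth. Changes in genes with as few reads as Tcf7 and Cd74 were not simulated.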
